A study of Mus musculus with 4 samples.

Results

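The effect of neutralizing IL-10 was examined in cells formed on marrow stroma, which the labels call sDCs, a kind of dendritic cell (DC), by setting 1 array of antibody-treated sDCs against 1 array of untreated sDCs. These were 2 of the 4 arrays of the series. Of 41174 probes for mouse transcripts, 25607 were well above background on both arrays and gave a difference. They represented 13807 of the 19842 genes named on the array, each gene by its brightest probe. Both cultures came from BALB/c bone marrow depleted of lineage-positive cells. These progenitors were grown on a monolayer of Sca-1+CD117-Lin- mesenchymal stem cells (MSCs), the stromal cells of the culture. Lipopolysaccharide (LPS), a bacterial product that activates DCs and macrophages, went into both cultures on day 4 (the sources used here give no dose), and the sDCs were formed on day 9. The treated culture also received an IL-10-neutralizing antibody, 10 µg/mL every 2 days. The other arrays, used here only for reference values, held immature DCs (imDCs) grown from marrow with GM-CSF and IL-4 and selected for CD11c, and mature DCs (maDCs) made from such cells with LPS.

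The markers went against that name in part. For the list of 18 DC markers, members below background included, the median level was -4.26 in sDCs, 0.34 in imDCs and -0.31 in maDCs. The summed signal of that list, in units of the 75th percentile of each array, was 151 in sDCs, 106 in imDCs and 274 in maDCs. By that sum sDCs were not below imDCs. Itgax, the gene of CD11c, was at -1.60 in sDCs against 2.93 in imDCs. All 23 macrophage and monocyte markers were measured, with a median level of 4.29 in sDCs, 1.16 in imDCs and 2.325 in maDCs. The name sDC is used below only as the label of the samples. Several features limit the cultures as a model. All populations are called purified, but the sources used here do not say how sDCs were separated from the MSC layer, and they describe no culture with a control antibody. Each condition was a single culture on a single array, so no spread between cultures can be estimated, no p-value is given, and every difference compares these arrays and not the treatments in general. The antibody and the sDC arrays lay on the same slide with the maDC array, while the imDC array lay on another slide. Values below are log2 signals relative to the 75th percentile of each array, and differences are antibody-treated minus untreated. A gene is called higher or lower where it passed 1.5-fold (a log2 difference of 0.58), and a larger threshold of 2-fold is given beside it. List members beyond the naming rule given with the methods were chosen after their values were seen.

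IL-10 is a cytokine that restrains inflammatory responses. It binds a receptor made of IL-10RA and IL-10RB on macrophages, DCs and other leukocytes, which through the kinases JAK1 and TYK2 activates the transcription factor STAT3. STAT3 then raises genes such as Socs3, Bcl3 and Nfil3, and IL-12, TNF, IL-6, chemokines, costimulatory molecules and MHC class II are known to be lowered by IL-10 in LPS-activated cells. A neutralizing antibody binds the secreted cytokine and does not itself remove its transcript.

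The arrays were close to each other. Among the 25607 probes the median difference was 0.01 with an SD of 0.29, and 94.6% lay within 1.5-fold. At 2-fold, 131 probes were higher with the antibody (0.512%) and 171 were lower (0.668%), and at 1.5-fold 496 were higher (1.94%) and 879 lower (3.43%). Counted by gene, 63 were higher (0.456%) and 114 lower (0.826%) at 2-fold, and 199 higher (1.44%) and 641 lower (4.64%) at 1.5-fold. The median gene had a difference of -0.03. The scatter depended on brightness, from an SD of 0.41 in the dimmest sixth of the probes, which held 54 of the higher and 75 of the lower probes at 2-fold, to 0.15 in the brightest sixth, which held 4 and 4. For 161 probes printed at least 8 times, the median SD of a difference between single spots was 0.07 over all and 0.21 in the dimmest sixth. This error covers spotting and scanning alone. Of 10 spike-in controls 2 were well above background on both arrays, both dim, and after scaling they differed by 0.28 and 0.04. With normexp background correction, which compresses dim signals, 30 genes were higher and 22 lower at 2-fold, and 112 and 338 at 1.5-fold. Of the 5821 genes with more than 1 measured probe, 16 had every probe higher and 75 had every probe lower at 1.5-fold.

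**Figure D1:**
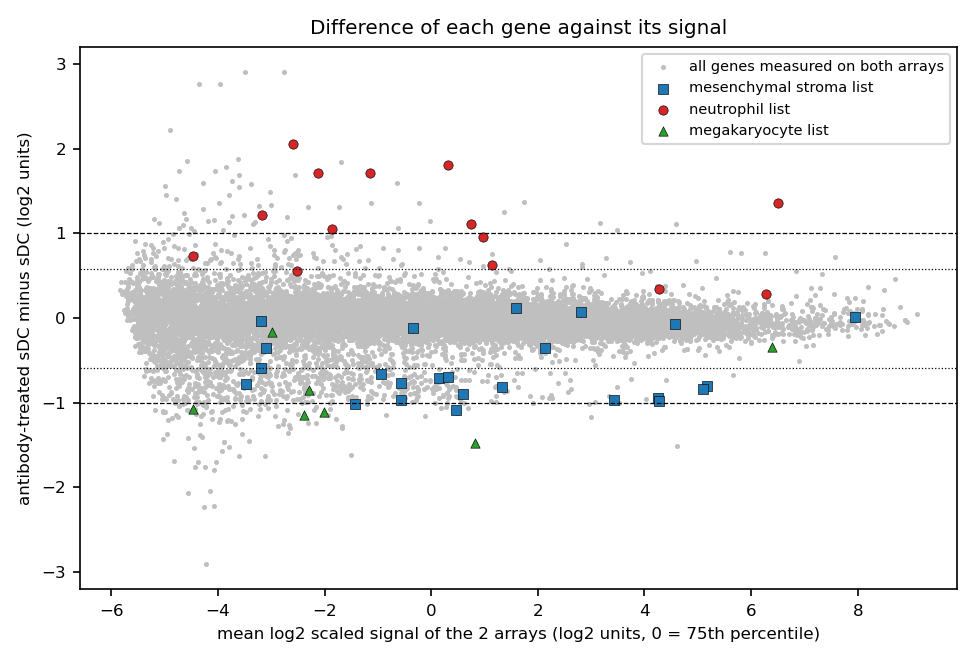
Difference between the antibody-treated and the untreated sDC array for each of 13807 genes (vertical axis, log2 units) against the mean scaled signal of both arrays (horizontal axis, log2 units), with dotted lines at 1.5-fold and dashed lines at 2-fold. Neutrophil list members (red circles) lie above 0 at every brightness, mesenchymal stroma members (blue squares) mostly lie between -1.09 and -0.59, and the widest scatter of other genes is at low signal.

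IL-10 and its receptor were measured on both arrays, and none of the 3 genes passed 1.5-fold. Il10 itself was dim, at -3.71 in sDCs and -3.96 with the antibody, a difference of -0.25 over 10 and 9 spots with SDs between spots of 0.12 and 0.07. The ligand-binding chain Il10ra was at 2.10 and 2.29, and the shared chain Il10rb at 5.59 and 5.39. Il10 was higher in maDCs (-2.15) than on either sDC array and lower in imDCs (-6.20). Downstream, Stat3 was at 5.10 without and 4.83 with the antibody, a difference of -0.26 over 10 spots on each array with SDs of 0.03. Socs3, the feedback inhibitor raised by STAT3, went from 6.15 to 6.32. Bcl3, a nuclear regulator of NF-kB, differed by -0.13, and Nfil3, a transcription factor raised by IL-10 in macrophages, by 0.07.

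Within a list of 22 IL-10 receptor and STAT3 pathway genes, 21 were measured and their median difference was -0.01. Of these, 2 were higher and 1 was lower at 1.5-fold, against 1.44% and 4.64% of all genes, and none passed 2-fold. Il6ra, the IL-6 receptor chain, rose by 0.77, with its other probe at 0.65. Tyk2, a kinase of the IL-10 receptor, rose by 0.63 from -0.87 to -0.25. Il11, a cytokine of the IL-6 family made by stromal cells, fell by 0.68, but by 0.56 with normexp, inside the threshold. Osm, another cytokine of that family made by myeloid cells, differed by 0.54 on its brightest probe and by 0.69 on the other.

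**Figure D2:**
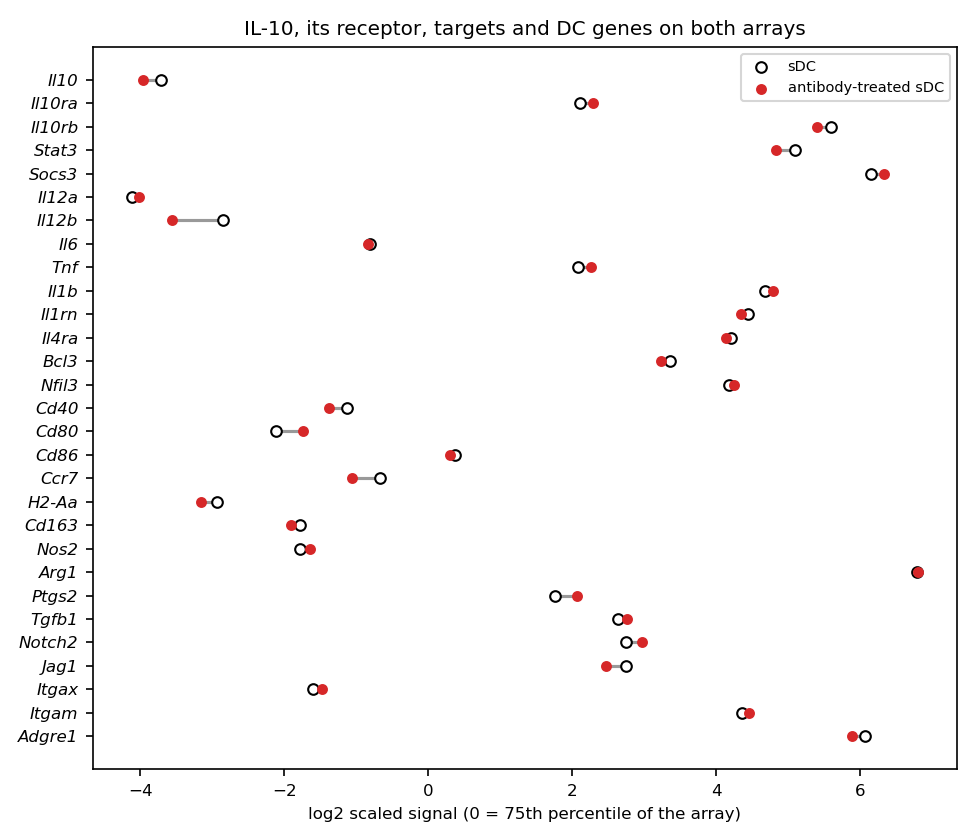
Scaled log2 signal in untreated sDCs (open circles) and antibody-treated sDCs (red circles) for the 29 measured genes of a fixed set on the IL-10 pathway and DC function, with a line joining the arrays for each gene. The lines are short: the longest, for Il12b, spans 0.70.

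Of 36 genes known to be raised by IL-10 in macrophages 35 were measured, with a median of -0.04, 2 higher and 1 lower at 1.5-fold, against 1.44% and 4.64% of all genes. Ddit4, a stress-induced inhibitor of mTORC1, rose from 4.03 to 5.14, a 2.16-fold difference. Il1r2, the decoy receptor for IL-1, which neutrophils also carry, rose by 0.68, and its other probe by 0.87. Timp1, an inhibitor of metalloproteinases that stromal cells also make, fell from 3.58 to 2.41, a 2.24-fold difference, and its other probe fell by 0.91. The remaining members included Il4ra at -0.07, Il1rn at -0.10 and Cd163 at -0.12. The Fc gamma receptor Fcgr1 was lower by less than the threshold on both of its probes, -0.39 and -0.28.

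Genes known to be lowered by IL-10 in activated macrophages and DCs also had a median near 0, at -0.07 over 36 of 40 genes. At 1.5-fold 2 were higher and 3 lower, against 1.44% and 4.64% of all genes. The inflammatory cytokines Tnf (0.18), Il6 (-0.03) and Il1b (0.11) stayed within 1.5-fold, each measured over at least 9 spots on each array. Il12a, the p35 subunit of IL-12, was dim on both arrays, at -4.11 and -4.02. Il12b, which encodes the common p40 chain of IL-12 and IL-23, fell from -2.85 to -3.56, measured over 10 and 9 spots with SDs of 0.07, while the maDC array had it at 6.45. With normexp the Il12b difference was -0.45 and no longer passed 1.5-fold. Il23a was not well above background on either sDC array. Ccl5, a chemokine for T cells and monocytes, fell by 0.68 on its brighter probe and by 0.69 on the other. Csf1, the growth factor of macrophages, fell by 0.70. In the other direction, Csf3, the growth factor of neutrophils, rose from -1.82 to -1.01, and Cxcl3, a neutrophil chemokine, rose by 0.60. The inducible enzymes Ptgs2 (0.31) and Nos2 (0.14) and the arginase gene Arg1 (0.01) stayed within 1.5-fold.

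Antigen presentation was nearly the same on both arrays. None of 16 measured MHC class II presentation genes and none of 18 measured MHC class I genes passed 1.5-fold. H2-Ab1, a chain of the class II molecule, was at 2.23 and 2.04, and all 4 of its probes lay between -0.26 and -0.05. Among costimulation and maturation genes the median was -0.20, with none of 18 higher and 4 lower. At 1.5-fold 1.44% of all genes were higher and 4.64% lower, and the class I and II counts lay near those shares. Tnfsf4, the ligand of OX40, fell by 2.23 and Cd70, the ligand of CD27, by 1.69, but both were dim, at -3.15 and -3.99 in sDCs, and each rests on a single spot. In maDCs Tnfsf4 was at 3.24 and Cd70 at -5.07. Slamf1, a self-ligand on activated leukocytes, fell by 0.83, and Fscn1, the actin-bundling protein of mature DCs, by 0.64, but with normexp these were -0.37 and -0.39. Other costimulatory genes stayed within 1.5-fold, with Cd40 at -0.25 over at least 9 spots. Cd86 was at -0.08 and Cd80 at 0.37, each on 1 spot an array, and Cd80 was dim (-2.12 and -1.75). The chemokine receptor Ccr7, which guides mature DCs to lymph nodes, was at -0.68 and -1.06, against 4.06 in imDCs, and was higher still in maDCs.

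The labelled cell type was checked against 18 DC markers, of which 14 were measured on both arrays. Clec9a, Cd209a, Siglech and Irf4 were not. Itgax was at -1.60 and -1.47, below its level in maDCs (3.70) too, and Zbtb46, a transcription factor of classical DCs, was at -4.49 and -4.94. All 23 macrophage and monocyte markers were measured. Among them Adgre1, the gene of F4/80, was at 6.06 and 5.88, above imDCs (3.62) but below maDCs (6.45). In that list the median difference was -0.12, with 1 gene higher and 3 lower, against 1.44% and 4.64% of all genes. The lower genes were the C1q chains C1qa (-0.86), C1qb (-0.66) and C1qc (-0.94), which form the recognition unit of the classical complement pathway. Ccr2, the receptor that draws monocytes out of the marrow, was the higher gene, with 0.64 and 0.51 on its probes. In the DC list only Flt3, the receptor of a DC growth factor, passed 1.5-fold, and it was dim, at -5.41 and -4.47, with a difference of 0.41 under normexp.

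Neutrophil genes were higher with the antibody, and every measured member of the list is given. Of 15 genes on the list 14 were measured, all but Ly6g, and all 14 differences were above 0, with a median of 1.08 against -0.03 over all genes. At 1.5-fold 11 of 14 were higher and at 2-fold 8 of 14, where 1.44% and 0.456% of all genes were. Like the other lists, this list was chosen with earlier results of these data known, so the contrast is not an independent test. The summed signal of the list, in units of the 75th percentile of each array, was 150 in sDCs and 264 with the antibody, 1.76-fold higher. Most of that sum came from S100a8 and S100a9, and most of its rise from S100a9. In bulk RNA, more cells of a type and more RNA per cell cannot be told apart.

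Cxcr2, the receptor by which neutrophils follow CXC chemokines, showed the largest rise of the list, from -3.63 to -1.57 (4.16-fold, probe at mm9 chromosome 1, 74206886 to 74206945). Its other probe rose by 1.56. Ltf, which encodes lactoferrin of the secondary granules, rose from -0.59 to 1.22 (3.50-fold, mm9 chromosome 9, 110942873 to 110942932), and its other probe by 1.90. Retnlg, a resistin-like protein of neutrophils, rose from -2.00 to -0.28, and Ngp, a granule protein, from -2.99 to -1.28. The granule peptide gene Camp rose by 1.05. All 5 belong to later stages of granulocyte development.

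The genes of the primary granules, made at the promyelocyte stage, rose in 3 of 4 cases. Elane, neutrophil elastase, went from -3.78 to -2.56, Ctsg, cathepsin G, from 0.20 to 1.30 and Mpo, myeloperoxidase, from 0.49 to 1.45. Prtn3, proteinase 3, differed by 0.56, just inside 1.5-fold. The brightest members differed from each other. S100a9, a subunit of calprotectin, rose from 5.82 to 7.17, a 2.56-fold difference, whereas its partner S100a8 was at 6.14 and 6.42, 1.21-fold apart. Lcn2, a siderophore-binding protein, rose by 0.63, Cd177, a neutrophil surface protein, by 0.73, and the collagenase Mmp8 was at 4.09 and 4.44.

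The 250 bases before the annotated start of 5 genes are shown from RefSeq (GRCm38.p6). Of these genes Ltf, Ngp and S100a9 rose, Timp1 fell, and the STAT3 target Socs3 stayed within 1.5-fold. Capitals mark matches on either strand to TTNNGNAAT, a form of the site of the C/EBP factors known for granule protein genes, or to TTCNNNGAA, a form of the STAT site. The motifs and windows were chosen after the values were seen.
Ltf, chr9:111019042-111019291, plus strand: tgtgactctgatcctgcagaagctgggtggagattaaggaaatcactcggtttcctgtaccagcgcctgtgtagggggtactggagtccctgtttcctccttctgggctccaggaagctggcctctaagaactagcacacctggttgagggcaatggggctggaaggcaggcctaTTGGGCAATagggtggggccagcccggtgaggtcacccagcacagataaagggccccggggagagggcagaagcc
Ngp, chr9:110419558-110419807, plus strand: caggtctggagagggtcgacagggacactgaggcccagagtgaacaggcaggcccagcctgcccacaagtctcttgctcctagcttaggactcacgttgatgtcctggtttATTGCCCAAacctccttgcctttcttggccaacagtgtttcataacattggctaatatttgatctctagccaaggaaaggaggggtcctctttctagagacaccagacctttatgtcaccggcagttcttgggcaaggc
S100a9, chr3:90695722-90695971, minus strand: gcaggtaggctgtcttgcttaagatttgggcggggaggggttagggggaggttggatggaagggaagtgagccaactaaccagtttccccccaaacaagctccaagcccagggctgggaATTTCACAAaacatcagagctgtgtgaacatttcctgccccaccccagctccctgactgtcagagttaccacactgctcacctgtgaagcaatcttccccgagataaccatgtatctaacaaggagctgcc
Timp1, chrX:20869916-20870165, plus strand: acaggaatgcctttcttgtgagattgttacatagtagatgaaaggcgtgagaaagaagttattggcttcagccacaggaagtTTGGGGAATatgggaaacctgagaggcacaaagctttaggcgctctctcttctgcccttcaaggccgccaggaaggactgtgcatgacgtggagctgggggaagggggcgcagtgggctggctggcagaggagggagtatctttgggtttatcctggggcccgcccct
Socs3, chr11:117969367-117969616, minus strand: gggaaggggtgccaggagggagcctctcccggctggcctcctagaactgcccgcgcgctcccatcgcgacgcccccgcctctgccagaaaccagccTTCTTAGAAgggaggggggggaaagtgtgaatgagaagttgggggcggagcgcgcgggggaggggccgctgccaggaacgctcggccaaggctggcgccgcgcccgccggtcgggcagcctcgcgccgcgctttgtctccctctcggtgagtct
A C/EBP-type match lies 75 to 67 bases before the start of Ltf, 139 to 131 before that of Ngp and 131 to 123 before that of S100a9. Timp1, which moved the other way, holds such a match too, 168 to 160 bases before its start. Socs3 has the STAT-type match, 154 to 146 bases before its start. Over all 32851 windows of this length 10.2% held the C/EBP-type letters and 7.02% the STAT-type letters. Of the 16 windows of the neutrophil list, 4 held the C/EBP-type letters, and those of Ltf, Ngp and S100a9 are among these 4. No neutrophil window without a match is shown. Of the 40 windows of genes raised by IL-10 in macrophages, 9 held the STAT-type letters. The C/EBP-type letters were also in 2 of 6 windows of the megakaryocyte list, which was lower with the antibody, and in 2 of 18 of the stromal list. These matches are letters in a window and describe no binding.

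Genes outside the list that neutrophils are known to express were picked here after their values were seen. Padi4, the peptidylarginine deiminase that citrullinates histones in neutrophils, rose on all 3 of its probes, by 0.97, 1.46 and 1.36. Pglyrp1, a peptidoglycan-binding granule protein, rose from -2.62 to -0.78. Il1f9, an IL-36 cytokine, rose by 1.07 on each of its 2 probes, and Prok2, a chemotactic peptide, by 1.14 and 1.33. The transcription factor of granulocytes Gfi1 rose by 0.87. The stefin genes on chromosome 16, bright on both arrays, included Stfa1 (5.43 and 6.20), Stfa2l1 (5.21 and 5.99), Cstdc5 (5.87 and 6.63) and Csta1 (7.22 and 7.93), and Stfa2 at 0.47 and Stfa3 at 0.37 did not pass 1.5-fold. These stefins are near-identical copies and may share probe signal.

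On the reference arrays the same genes were not ordered alike. The imDC array had higher levels than either sDC array for most of the list, such as Ltf at 8.04, Ngp at 6.22 and Mpo at 7.28. Over the list, members below background included, the median level was -1.30 in sDCs, 0.47 with the antibody, 5.72 in imDCs and -0.01 in maDCs. In maDCs Ltf (0.54), Ngp (-1.22) and Lcn2 (4.49) were above the untreated sDC level, Retnlg was not well above background, and Cxcr2 (-3.81) and S100a9 (5.34) were below the untreated sDC level. Antibody-treated sDCs had more Mmp8 than imDCs (3.05) and maDCs (2.58), as did the untreated sDCs.

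**Figure D3:**
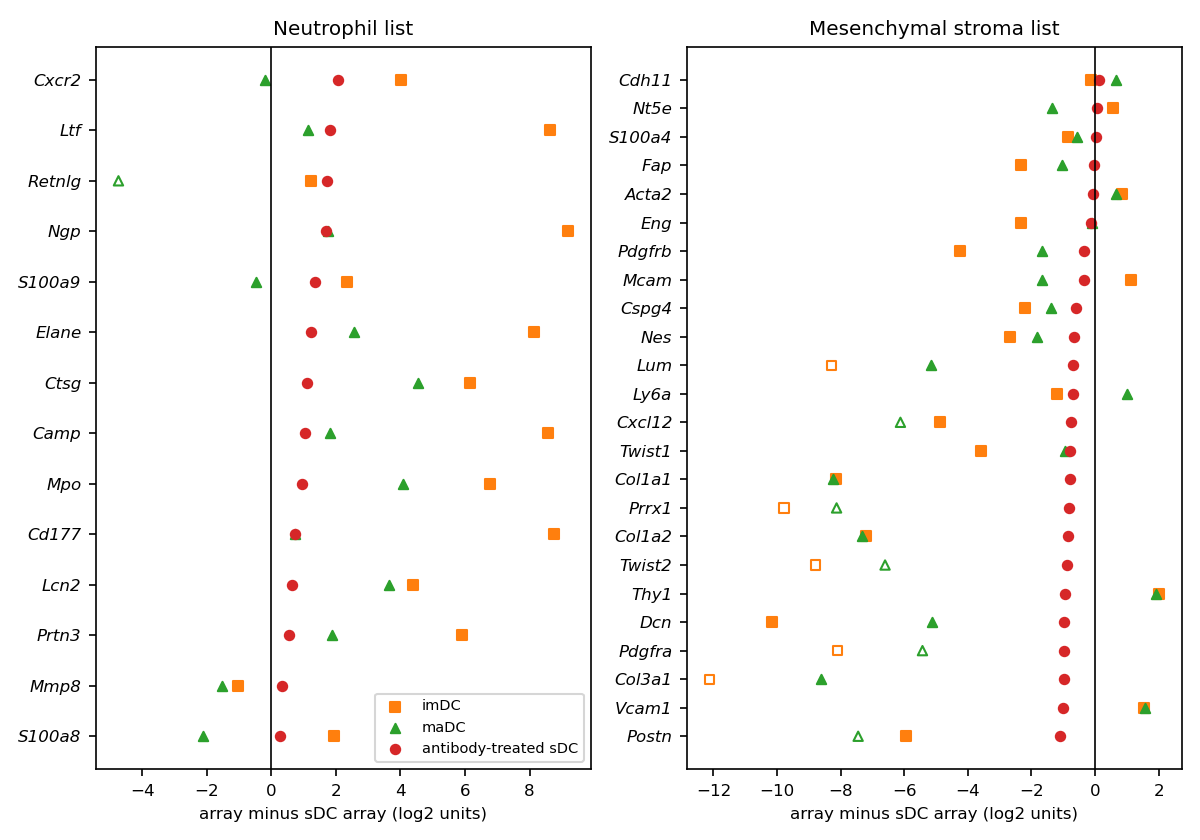
Level of each measured member of the neutrophil list (left) and the mesenchymal stroma list (right) on the imDC, maDC and antibody-treated sDC arrays, as the difference from the untreated sDC array in log2 units, with open symbols for values not well above background. Red circles lie right of 0 for all 14 neutrophil genes and left of 0 for 21 of 24 stromal genes, while imDC and maDC values spread over a far wider range.

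Markers of other granulocytes were dim and mixed. Of 8 eosinophil markers only 2 were measured, with Prg2, the major basic protein, up from -5.76 to -4.21. In the mast cell and basophil list 8 of 11 were measured and, against 1.44% of all genes, 3 were higher. These were the chymase Cma1 (1.41), the histidine decarboxylase Hdc (1.31) and the carboxypeptidase Cpa3 (0.99), all at -1.65 or below on both arrays, while the basophil protease Mcpt8 was at -0.40. Chil3 and Chil4, chitinase-like proteins of myeloid cells whose near-identical sequences may share probe signal, rose by 1.36 and 1.17. Myb, a transcription factor of progenitors, rose by 0.72 over 10 spots on each array, and by 1.09 on its other probe. With normexp Cpa3 (0.37), Chil4 (0.55) and Myb (0.40) did not pass 1.5-fold.

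Genes of mesenchymal stroma were lower with the antibody. Of 26 markers 24 were measured, all but Lepr and Gli1, with a median of -0.73. At 1.5-fold 16 of 24 were lower and none was higher, where 4.64% and 1.44% of all genes were. The summed signal of the list fell from 460 to 381, 0.829 of the untreated value. Such a sum is weighted towards the brightest members, which the list median is not. How many stromal cells each sample held was not measured, and whether MSC carried over with the sDCs has a part in the result was not tested.

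Pdgfra, the receptor by which marrow stroma is often sorted, went from -0.09 to -1.06. Prrx1, a transcription factor of limb and marrow mesenchyme, fell from 1.74 to 0.92, and its 3 probes fell by 0.73, 0.73 and 0.82. Thy1, a surface protein of stroma and some leukocytes, fell by 0.94 and 0.93 on its probes. Vcam1, the adhesion molecule that holds haematopoietic cells on stroma, fell by 1.01 and 0.76. Cxcl12, the chemokine that retains progenitors in the marrow, fell by 0.76 and 0.79. Members that did not pass 1.5-fold included Eng (-0.12), Nt5e (0.07), Acta2 (-0.07), Fap (-0.04), Pdgfrb (-0.35) and S100a4 (0.02). Cdh11 was at 0.12 on its brightest probe while its lowest probe difference was -0.90.

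Most collagen chains were lower with the antibody. Of 20 chains 18 were measured, with a median of -0.73, 14 of 18 lower at 1.5-fold and none higher, against 4.64% and 1.44% of all genes. Col1a1, a chain of the main fibrillar collagen, fell from 5.57 to 4.77 over 10 spots on each array with SDs of 0.06 and 0.05, and its 3 probes fell by 0.80, 0.92 and 0.93. Its partner Col1a2 fell from 5.52 to 4.68, and Col3a1, of the fibrillar collagen of soft tissue, from 4.77 to 3.79 (mm9 chromosome 1, 45405589 to 45405648). The microfibrillar Col6a1 fell by 0.87, the fibril-associated Col16a1 by 0.93, and Col5a3 by 0.92. The basement membrane chains Col4a1 and Col4a2 fell by 0.69 and 0.72. Col7a1, of anchoring fibrils, was at 0.18, and Col18a1, another basement membrane collagen, at -0.22.

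The rest of the matrix followed in part. Among 30 other matrix genes, all measured, 20 were lower and none was higher at 1.5-fold, with a median of -0.85, against 4.64% and 1.44% of all genes. Postn, a matricellular protein, fell by 1.09 and Dcn, the proteoglycan decorin, from 3.90 to 2.94. Sparc, a collagen-binding glycoprotein, fell by 0.92 and 0.83 on its probes, and Tnc, tenascin C, by 0.98, 0.59 and 0.66 on 3 probes. Loxl2, a collagen crosslinking enzyme, fell by 1.07, and the hyaluronan synthase Has2 by 1.15. Members that did not pass 1.5-fold included Spp1, osteopontin, at 8.90 and 8.88, Fn1 at -0.02 and Thbs1 at 0.05. Whether the cell of origin of a gene has a part was not tested.

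Metalloproteinases split by gene. For this and the next lists the share of all genes that were lower at 1.5-fold was 4.64%. Of 20 measured, 8 were lower and none was higher, and the lower genes included Timp3 (1.72 and 0.72), Adamts2 (-0.86), Mmp2 (-0.76) and Mmp11 (-0.78). Mmp9, a gelatinase of neutrophils and macrophages, was at 0.33, Mmp12, the macrophage elastase, at 0.37, and Adam8, of myeloid cells, at -0.08. The IGF system had 5 of 12 genes lower, among them Igf2, a fetal growth factor, by 0.81 and 0.71 on its probes, and Igfbp3 by 0.92. Contractile genes had 6 of 16 lower, such as Myl9 at -0.77 and Cnn1 at -0.80. In the TGF-beta list 7 of 26 were lower, with the ligands Tgfb2 at -0.93 (-0.40 with normexp) and Tgfb3 at -0.60, while Tgfb1, the main form in leukocytes, was at 0.13 over 10 spots on each array. Niche and growth factor genes had 7 of 24 lower and none higher, including Kitl, the ligand of KIT (-0.72), and the epithelial growth factor Fgf7 (-0.83). Ccl11, eotaxin, a stromal chemokine, fell by 0.98.

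**Figure D4:**
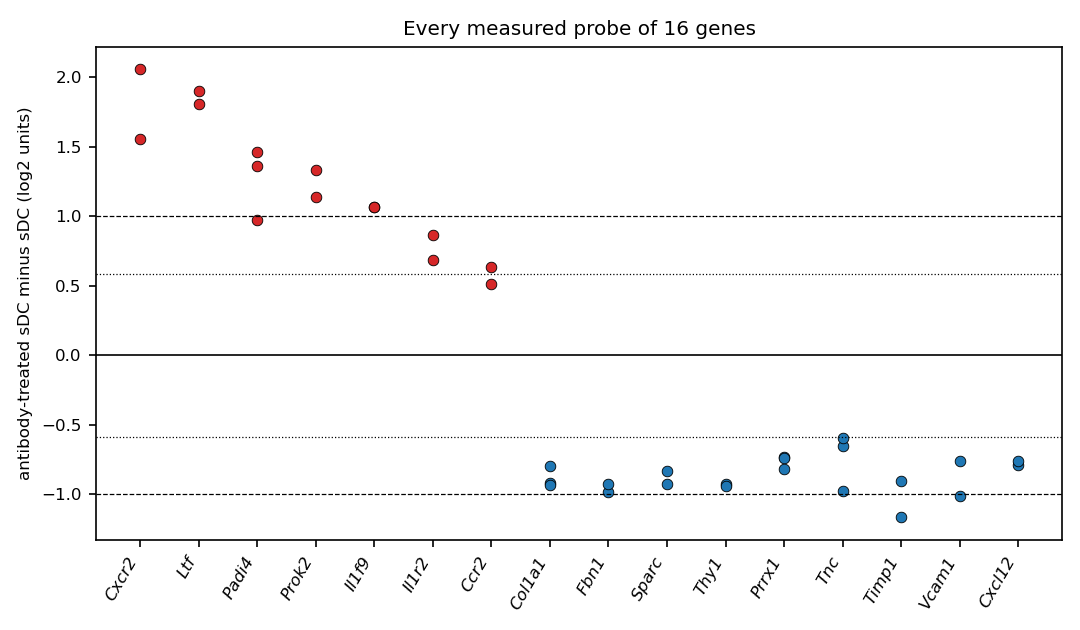
Difference of every measured probe (points) of 16 genes that had more than 1 probe, in log2 units, with dotted lines at 1.5-fold and dashed lines at 2-fold. The genes were chosen after their values were seen. All probes of a gene lie on the same side of 0, between 0.51 and 2.06 for the higher genes (red) and between -1.17 and -0.59 for the lower genes (blue).

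The genes that were lower were often those with little signal in marrow DCs. Of the 641 lower genes, 76.1% were above background on the imDC array and 69.9% on the maDC array, against 97.6% and 94.1% of all measured genes. On neither were 19.2% of the lower genes, against 1.92% of all genes and 4.02% of the 199 higher genes. Prrx1, Twist2 and Pdgfra, for example, were not well above background in either imDCs or maDCs. Of the 26 stromal list genes, however, 21 were above background in imDCs and 19 in maDCs. The median level of that list was -4.12 in imDCs, -3.26 in maDCs and 0.84 in sDCs. Thy1 was higher in imDCs (6.74) and maDCs (6.63) than in sDCs (4.72). Vcam1 was too, at 0.62 and 0.63 against -0.93.

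Platelet and megakaryocyte genes were lower too. Of 8 genes 7 were measured, with a median of -1.07, and 5 of 7 were lower at 1.5-fold and 4 at 2-fold, against 4.64% and 0.826% of all genes. Ppbp, a platelet chemokine precursor, fell from 1.56 to 0.08 (2.79-fold, mm9 chromosome 5, 91198970 to 91199029). Gp1ba and Gp9, subunits of the platelet receptor for von Willebrand factor, fell by 1.15 and 1.11, and the collagen receptor Gp6 by 1.07. Pf4, which macrophages can also express, was bright at 6.55 and 6.22, a difference of -0.34, and Itga2b was at -0.17. With normexp the list median was -0.68, 1 of 7 was lower at 2-fold, and Gp6, at -0.48, did not pass 1.5-fold. All but Ppbp and Pf4 were dim, at -1.45 or below in sDCs.

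In the progenitor list 8 of 10 genes were measured, with a median of -0.20. At 1.5-fold 2 were higher and 3 lower, against 1.44% and 4.64% of all genes. Flt3 and Myb were the higher genes, and Cd34, a surface protein of progenitors and some stromal cells, which was picked after its values were seen, fell from 0.18 to -0.46. None of the measured T cell (9), NK cell (3), erythroid (6), endothelial (5), osteoclast (10) and osteoblast (4) markers passed 1.5-fold. In lists of this size such counts are near the shares of all genes. In the B cell list Ebf1, which marrow stroma also expresses, was lower by 0.72 (-0.29 with normexp). In the adipocyte list Lpl, lipoprotein lipase, rose by 0.66, with its other probe at 0.50.

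Several processes had no or almost no member past 1.5-fold. This held for NF-kB subunits and targets (0 of 19), Toll-like receptors and adaptors (0 of 22) and the Fc gamma receptor list (0 of 8). It also held for lysosome (0 of 25), mitochondrial respiratory chain (0 of 22), oxidative stress and metallothioneins (0 of 18) and cell death and survival (0 of 20). At 1.5-fold 1.44% of all genes were higher and 4.64% lower, so in lists of this size such counts are near those shares. Among 35 interferon-stimulated genes only Gbp5, a guanylate-binding protein, was higher, by 0.74, and with normexp by 0.58, just inside the threshold. All 8 genes of the Fc gamma receptor list lay below 0, between -0.39 and -0.03, as did 56.9% of all genes. That list also holds Fcgrt, the gene of the neonatal Fc receptor (-0.18). Cell cycle genes had a median of 0.08 with 1 of 31 higher, Kif11, a mitotic kinesin, by 0.65 (0.40 with normexp), while Mki67 was at 0.28. Of 23 measured immediate early and heat shock genes 2 were higher and 1 was lower, against 1.44% and 4.64% of all genes. Egr1 rose from 4.62 to 5.30. Egr3, dim and with 1 spot an array, rose by 1.36 from -4.65 to -3.29. Hspb1, a small heat shock protein, fell by 0.75. Of 32 measured regulatory genes none was higher and 4 were lower, against the same shares. Aldh1a2, an enzyme of retinoic acid synthesis, fell from -3.27 to -4.35 and Axl, a receptor for apoptotic cells, by 0.74. In the Notch pathway 3 of 14 measured genes were higher and 1 was lower, against 1.44% and 4.64% of all genes. The target Hes5 rose by 1.09 and the ligands Dll4 and Jag2 by 0.70 and 0.64, all dim, and with normexp these were 0.48, 0.24 and 0.39, inside the threshold. Notch3, a receptor of mural and stromal cells, fell by 0.97, while the ligand Jag1 and the receptor Notch2 were at -0.27 and 0.22.

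**Figure D5:**
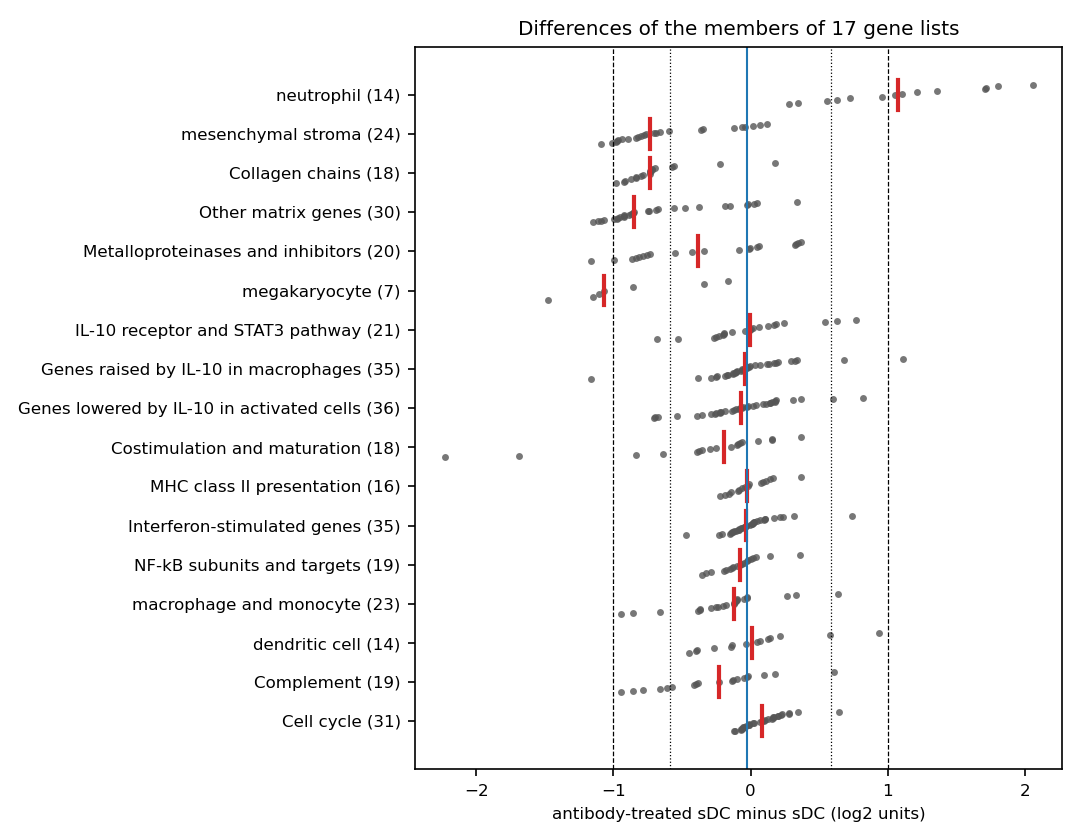
Differences of the measured members (points) of 17 gene lists in log2 units, with the median of each list in red, the median of all genes as a blue line, dotted lines at 1.5-fold and dashed lines at 2-fold, and the number measured in parentheses. The neutrophil list is centred at 1.08 and the stroma, collagen, other matrix and megakaryocyte lists at -0.73, -0.73, -0.85 and -1.07, while most of the immune lists are centred near 0.

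The largest single differences were mostly in dim genes with 1 probe and 1 spot. The 15 largest rises held 4 neutrophil list genes (Cxcr2, Ltf, Retnlg and Ngp), and Pglyrp1. Aire, a regulator of thymic self-antigen expression, rose from -5.74 to -2.98, the serine protease gene Tmprss3 from -4.95 to -2.05, and the lens transcription factor gene Foxe3 from -5.33 to -2.58. Rab27a, of vesicle traffic, rose by 2.91 on its brightest probe and by 0.10 on the other. Among the largest falls were the dim genes Kcnk3 (-2.04), a potassium channel, Crmp1 (-1.76) and Cd70. Foxp4, a forkhead factor, fell by 2.22 on its brightest probe while its other probe was at 0.53. Brighter genes with large differences included Slc4a7, a bicarbonate transporter, which fell from 5.36 to 3.86 on its brightest probe while its other probes were at -0.09 and 0.12, and Ube2s, a ubiquitin-conjugating enzyme, which rose by 1.37 and 1.33 on its probes. These 2 were picked after their values were seen. Il1rl1, the IL-33 receptor, also picked so, fell by 1.06 and 0.48 on its probes.

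Some genes were above background on 1 of the arrays only and gave a bound. For the dim array the bound used the larger of 2 signals, that of the gene itself and the minimum over all probes that were well above background there. Of the 19842 named genes there were 151 such on the antibody array, 69 with a bound of at least 2-fold. On the sDC array there were 641, 77 with such a bound. Among all 41174 probes, 330 were well above background on the antibody array only and 1370 on the sDC array only. With the antibody, Reln, a matrix glycoprotein, was at least 16.1-fold higher, Rsad1 at least 13.2-fold and Vat1l at least 11.8-fold. Adam12, a metalloprotease of mesenchymal cells, was at least 18.3-fold lower, Il17re, an IL-17 receptor chain, at least 12.9-fold and Kirrel2 at least 8.99-fold. These were the 3 largest bounds in each direction. Each rests on the brightest probe of the gene, and any other probes of these genes were not checked.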

How the data were processed

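Each one-colour array was hybridised with Cy3-labelled RNA of 1 culture. For every spot of each array the authors deposited an intensity from which background had been subtracted and which had been detrended, made with Agilent Feature Extraction 10.5.1.1 per the file headers (9.1 per the submitters' processing notes), and a table of log2 values. For the latter the sources used here do not give the normalization; its columns share identical quantiles. Probe positions are in mm9 per the file headers. From the deposited intensities, log2 was taken and the array's 75th percentile over non-control spots subtracted. Outlier-marked spots were dropped, spots of a probe averaged, and a probe kept where at least 50% of its spots were well above background on both arrays. Spots well above background were 66.0% (sDC) and 63.4% (antibody) of 43379, and none was saturated. The number of arrays limits the precision.

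Names came from a RefSeq table of GRCm38.p6: 25263 probes by accession, 6233 by symbol, 1603 by synonym, 8075 unmatched. Named genes were the 15 largest differences in each direction without a probe at least 1.5-fold the opposite way, the top 3 bounds each way, up to 4 genes of each of 54 lists, and 30 fixed genes. Others were chosen after their values were seen. The comparison, lists and members were chosen with earlier results of these data known. The steps were tested on simulated data. Alternatives were other scalings (quantile, median, loess in limma 3.58.1, the deposited values), other background treatment (normexp with an offset of 50, no detrending), other filters, and the mean over a gene's probes. Some list members are counted but not reported by name here.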

Additional observations from a re-analysis of the deposited data

How the results depend on the processing

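No named gene past 1.5-fold changed sign under any alternative run, and of the 9 list medians followed here only that of the IL-10 receptor and STAT3 pathway, near 0, did so (up to 0.01). Quantile, median and loess scaling, the deposited values and kept outlier spots left every count of genes and probes within 1.5 times its value. The 4 counts of genes (higher and lower at 2-fold, higher and lower at 1.5-fold) were 30, 22, 112 and 338 with normexp background, and 12, 15, 38 and 159 in the more brightly measured probes (above the median signal). The same counts of probes were 47, 31, 206 and 421, and 17, 17, 61 and 181. Genes above background on all 4 arrays had 66 lower at 2-fold and 418 at 1.5-fold, and probes 103 and 551. Without multiplicative detrending, 201 genes and 278 probes were lower at 2-fold, and the median probe difference moved to -0.08. That setting put the medians at -0.16 (IL-10 receptor and STAT3 pathway), -0.12 (genes raised by IL-10), -0.18 (genes lowered by IL-10), -0.30 (costimulation), -0.13 (MHC class II), -0.81 (collagens) and -1.17 (megakaryocyte). Normexp gave -0.63 (stroma), 0.92 (neutrophil) and -0.68 (megakaryocyte), the brighter probes -0.10 (costimulation), 0.96 (neutrophil) and -0.91 (megakaryocyte, 2 genes), all 4 arrays -0.59 (stroma, 17 genes), and the mean over probes -0.96 (megakaryocyte). Smaller sets follow from the stricter filters, and otherwise the cause was not tested. Neutrophil genes higher at 1.5-fold numbered 10 or 11 of 14, 10 of 13 on all 4 arrays and 5 of 7 in the brighter probes, and stromal genes lower numbered 14 to 16 of 24, 9 of 17 and 13 of 19. The gene and list counts were added after the data were seen. Of 114 named genes past 1.5-fold, 94 stayed past it with normexp. No paired analysis was possible because each group had 1 array. Dim probes limit the depth: 12.6% of the higher and 12.2% of the lower genes were in the upper part of the signal range (above the median gene).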

Other observations

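Xist and Y-linked transcripts were both above background on both arrays, in cultures that combine progenitors with an MSC layer. Xist, the X-inactivation RNA of female cells, was at -1.30 in sDCs and -1.90 with the antibody, with its other probe lower by 0.56. The Y-linked Ddx3y was at 1.51 and 1.79, with a difference of 0.13 for Eif2s3y, and Kdm5d at -0.56 and -0.55. On the reference arrays Xist was at 0.60 (imDC) and 1.23 (maDC). The sources used here do not give the sex of the mice behind the progenitors or the MSCs.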
